A study of Homo sapiens with 6 samples.

Results

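This account covers 10 genes of the BCL2 family of apoptosis regulators, taken by name from the 58825 genes of the deposited table: BCL2, BCL2L1, MCL1, BCL2A1, BAX, BAK1, BID, BIK, BBC3 and PMAIP1. Each symbol matched a single Ensembl identifier, and 9 of the 10 had enough reads to be tested. RNA sequencing was done in FaDu, an established line of human hypopharyngeal squamous carcinoma cells. The shNSUN2 group (3 libraries) carried a short hairpin RNA against NSUN2, a methyltransferase that places 5-methylcytosine on tRNAs and some mRNAs. The FaDu group (3 libraries) was the same line, with no hairpin named in its labels. With no non-targeting hairpin named among the libraries used here, loss of NSUN2, the hairpin itself and its delivery cannot be told apart. No source used here says whether the shNSUN2 cells are a clone or a pool, or whether replicates are separate cultures, so the p-values measure only the spread between these libraries, which may be technical. In such bulk RNA, fewer cells of a type and less RNA per cell cannot be told apart.

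Proteins of the BCL2 family decide whether the outer membrane of the mitochondria is made permeable, the step that releases cytochrome c and starts the caspases. The anti-apoptotic members (BCL2, BCL-XL from BCL2L1, MCL1 and BFL-1 from BCL2A1) hold the effectors BAX and BAK in check. The BH3-only members (BID, BIK, PUMA from BBC3 and NOXA from PMAIP1) bind the anti-apoptotic proteins or activate the effectors. Squamous carcinoma cells are known to lean on MCL1 and BCL-XL rather than on BCL2. The hairpin experiment asks which transcripts change when NSUN2 is lowered.

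BID was the member called higher, at 2.39 times its FaDu level in shNSUN2 cells, and no member was called lower. A missing call does not show that a member was unchanged. The 95% intervals of the log2 folds of BIK (-0.90 to -0.10) and BCL2L1 (-1.20 to -0.07) lay below 0. Of the 9 members tested, 1 passed the edgeR test at an adjusted p under 0.05, which is 11.1% of them. Among all 19081 genes tested, 18.5% passed, 8.54% higher and 9.97% lower in shNSUN2. A count of 1 gene in 9 does not set the family apart from all genes in either direction: without FaDu replicate 1, 2 or 3 BID was still called while 7.9%, 6.76% and 6.88% of all genes were, and without shNSUN2 replicate 1 the members called were 2, against 10.4% of all genes. The median log2 fold of the 9 members was -0.17, against -0.01 over all genes tested, but it rests on 1 library: without shNSUN2 replicate 3 it was -0.00086, against -0.02 over all genes. MCL1 had the highest level per length and BCL2A1 was at or near 0, in both groups.

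Promoters of the member that rose and of the member at or near 0 are shown for comparison, as RefSeq gives them on GRCh38.p14, from 250 bases before to 50 after the start. RefSeq's table had promoters for 8 of the 10 members (13 windows, since BID has 5 starts and BCL2L1 has 2). Capitals mark CpG dinucleotides, which are dense in the promoters of broadly used genes. The BID window is the first listed of its 5 starts, which is not the most upstream, at chr22:17774420-17774719 on the minus strand. The BCL2A1 window is chr15:79971147-79971446 on the minus strand.
BID: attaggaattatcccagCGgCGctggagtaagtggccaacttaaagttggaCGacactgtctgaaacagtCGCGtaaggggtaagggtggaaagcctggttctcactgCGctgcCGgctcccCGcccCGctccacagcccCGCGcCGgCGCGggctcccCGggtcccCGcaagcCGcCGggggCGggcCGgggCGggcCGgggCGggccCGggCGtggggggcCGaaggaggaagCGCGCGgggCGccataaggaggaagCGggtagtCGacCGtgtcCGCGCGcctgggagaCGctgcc
BCL2A1: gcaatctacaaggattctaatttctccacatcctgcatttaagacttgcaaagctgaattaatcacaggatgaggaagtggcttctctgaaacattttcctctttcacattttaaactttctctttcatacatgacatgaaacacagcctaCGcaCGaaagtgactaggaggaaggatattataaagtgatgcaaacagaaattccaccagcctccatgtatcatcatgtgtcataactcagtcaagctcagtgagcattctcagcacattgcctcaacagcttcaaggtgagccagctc
The BID window holds 37 CpG dinucleotides, more than 88.7% of 35116 promoter windows, whose median is 14. The BCL2A1 window holds 2, and 11% of windows hold fewer. The other BID starts have 29, 6, 33 and 31 in listed order, and the most upstream of all is the start with 6. PMAIP1 has 42, BAX 38 and BCL2 31, while BAK1 has 7 and BBC3 5. BBC3 and BCL2 were both low in these cells, and their windows have 5 and 31. Each window was searched on both strands for 3 motifs. The core of the box bound by the TATA-binding protein, spelled TATAAA, occurs in 11.5% of all windows. The E-box bound by MYC and its relatives, spelled CACGTG, occurs in 7.26% of them; it reads alike on both strands and was counted once. The element bound by C/EBP and ATF4 dimers, spelled TGATGNAAN, occurs in 3.61%. Hits of different motifs were allowed to overlap. BCL2A1 has 1 hit of the first motif and 1 of the third, and the first BCL2L1 start has 2 of the first motif. BAX has 4 E-boxes, and BBC3 and a pair of BID starts with overlapping windows have 1 each. These are matches of letters and say nothing of binding.

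The targeted gene was checked first. NSUN2 had 50.4, 34.7 and 39.6 CPM (counts scaled to a common library total, with edgeR's TMM factors) in the shNSUN2 libraries, against 169, 173 and 156 CPM in the FaDu libraries. The shNSUN2 mean was 25.1% of the FaDu mean (edgeR adjusted p = 0.000526). Library totals were 53612358 to 72788971 estimated counts. All genes called numbered 1629 higher and 1903 lower in shNSUN2, and 3390 and 1911 when trends with GC content and gene length were taken out of each library, a correction that moves the median of all genes to 0.11. Replicate 3 of shNSUN2 stood apart in this respect: its log2 difference from the other libraries of its group had a Spearman rho of 0.418 with GC content across 19033 genes, against -0.323 to 0.145 for the other 5 libraries (a description; genes are not independent). The squamous markers KRT5, KRT14, KRT17, TP63, CDH1 and EPCAM were present, with 4 called lower and 1 (EPCAM) higher, the 6 of them summing to 1768 to 2139 CPM in shNSUN2 and 3370 to 3552 CPM in FaDu. Of 13 leukocyte markers, 4 passed the filter and none was called (PTPRC, CD3D and MS4A1 were at 0 in all 6 libraries), with sums of 45.6 to 52.8 CPM in shNSUN2 and 38.2 to 58.8 CPM in FaDu. Markers of other tissues moved with the group: 5 plasma cell markers summed to 1.90 to 5.11 CPM in shNSUN2 and 0 to 0.267 CPM in FaDu, 5 smooth muscle markers to 2.74 to 15.2 CPM and 1.67 to 2.39 CPM, and 6 prostate markers to 35.5 to 55.5 and 14.8 to 18.04 CPM, in shNSUN2 and in FaDu. Of those tested, 3 of 3 plasma cell, 2 of 4 smooth muscle and 4 of 6 prostate markers were called higher. Their part in the results on the family was not tested.

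Among the BH3-only members, BID (chromosome 22, 17734138 to 17774770, GRCh38) stood out. BID is cut by caspase-8, and the cut form carries a death receptor signal to the mitochondria. It had 58.5, 52.2 and 73.1 CPM in the shNSUN2 libraries, against 24.5, 25.2 and 27.1 CPM in the FaDu libraries. Every shNSUN2 library lay above every FaDu library, with a wide gap between the groups. The means were 61.3 ± 10.7 CPM in shNSUN2 and 25.6 ± 1.36 CPM in FaDu (SD, n = 3 each). The log2 fold was 1.26 (SE 0.15, 95% interval 0.91 to 1.61, edgeR adjusted p = 0.00214). Permuting the 6 libraries exactly (two-sided) gave p = 0.1, which is the lowest value possible with 3 in each group. By unadjusted p BID ranked 315 among the 19081 genes tested, and 275 of the genes called higher had a larger log2 fold. The call held under all 12 other settings tried, with log2 folds of 1.116 to 1.36 and adjusted p of 1.85e-11 to 0.0165. The lowest fold belongs to the fit without shNSUN2 replicate 3, the library with the highest BID value.

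No other BH3-only member passed the test. BIK (chromosome 22, 43110748 to 43129712), which sits at the endoplasmic reticulum and binds anti-apoptotic members, had 18.3, 24.6 and 28.3 CPM in shNSUN2 and 33.5, 32.1 and 35.1 CPM in FaDu. All shNSUN2 values were below all FaDu values, yet the test was not passed (log2 fold -0.50, SE 0.17, 95% interval -0.90 to -0.10, edgeR adjusted p = 0.0834). It was passed in 3 of 12 other settings: without shNSUN2 replicate 3 (-0.64, adjusted p = 0.0237), with the GC and length correction (-0.48, adjusted p = 0.0242) and by DESeq2 (-0.49, adjusted p = 0.0496).

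PMAIP1 (chromosome 18, 59899948 to 59904306) encodes NOXA, which binds MCL1 and promotes its breakdown. It had 22.3, 31.6 and 21.5 CPM in shNSUN2 and 31.5, 35.2 and 30.9 CPM in FaDu. shNSUN2 replicate 2 lay among the FaDu libraries and the other 2 lay below them. The log2 fold was -0.37 (SE 0.17, 95% interval -0.78 to 0.03, edgeR adjusted p = 0.174), and without shNSUN2 replicate 2 it was -0.57 (adjusted p = 0.0343). BBC3 (chromosome 19, 47220822 to 47232766) encodes PUMA, which binds all the anti-apoptotic members. It had 3.92, 5.66 and 5.48 CPM in shNSUN2 and 4.38, 4.07 and 5.74 CPM in FaDu, with overlapping groups. Its log2 fold of 0.08 had a 95% interval of -0.43 to 0.60 (edgeR adjusted p = 0.833).

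**Figure D1:**
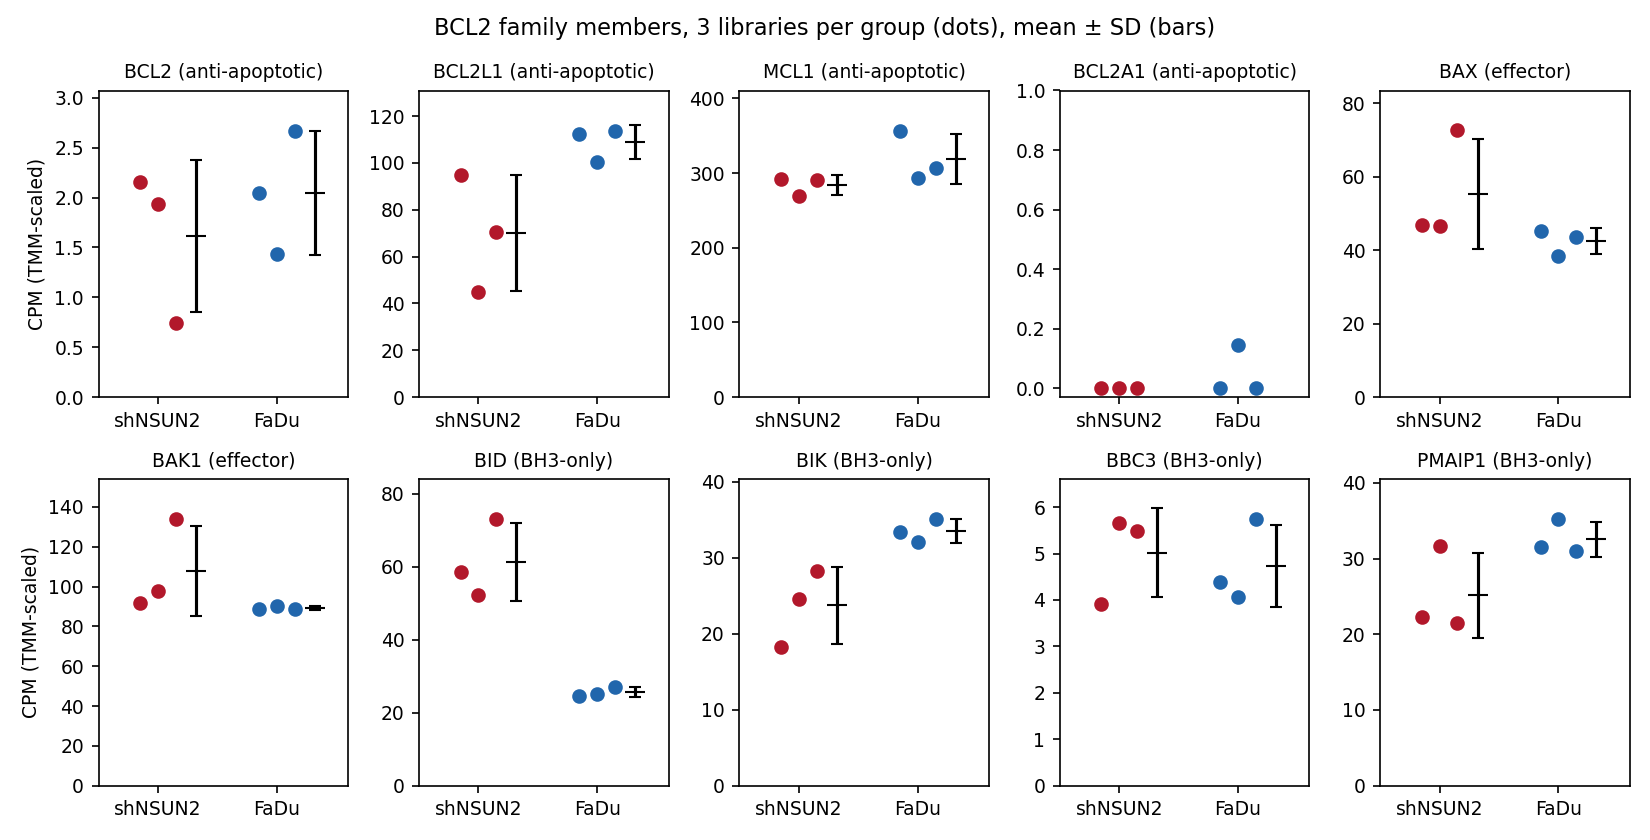
CPM (TMM-scaled) of the 10 members in each library, shNSUN2 in red and FaDu in blue, each panel with its own axis from 0 (BCL2A1 slightly below); black bars give the mean and SD over 3 libraries, left out for BCL2A1. BID lies at 52.2 to 73.1 CPM in shNSUN2 and 24.5 to 27.1 CPM in FaDu, while BCL2, BBC3 and PMAIP1 overlap between groups.

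No anti-apoptotic member passed the test. MCL1 (chromosome 1, 150574551 to 150579738), which encodes a short-lived protein that restrains BAK, had 292, 269 and 291 CPM in shNSUN2 and 357, 294 and 306 CPM in FaDu. The groups did not overlap, but the highest shNSUN2 library lay just below the lowest FaDu library. The log2 fold was -0.17, with a 95% interval of -0.43 to 0.10 (edgeR adjusted p = 0.348). BCL2L1 (chromosome 20, 31664452 to 31723989) had 94.7, 45.0 and 70.6 CPM in shNSUN2 and 112, 101 and 114 CPM in FaDu. Every shNSUN2 value was below every FaDu value, and the shNSUN2 libraries were spread widely. The means were 70.1 ± 24.9 CPM in shNSUN2 and 109 ± 7.26 CPM in FaDu (SD, n = 3 each), and the log2 fold was -0.64 (SE 0.24, 95% interval -1.20 to -0.07, edgeR adjusted p = 0.110). Without shNSUN2 replicate 1, which was nearest to FaDu, it was -0.91 (adjusted p = 0.0468). The table counts whole genes, so the long and short splice forms of BCL2L1, which act in opposite ways, cannot be told apart.

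BCL2 (chromosome 18, 63123346 to 63320128), the founder of the family, had 2.16, 1.94 and 0.741 CPM in shNSUN2 and 2.04, 1.43 and 2.67 CPM in FaDu. These are low levels and the groups overlapped (log2 fold -0.35, 95% interval -1.33 to 0.63, edgeR adjusted p = 0.613). Without shNSUN2 replicate 3, its lowest library, the log2 fold was -0.00086. BCL2A1 (chromosome 15, 79960889 to 79971446), an NF-kB target best known from leukocytes, was listed at 0 in all 3 shNSUN2 libraries and in FaDu replicates 1 and 3, and had 8 estimated counts in FaDu replicate 2. It did not pass the filter on low counts, and no fold is given.

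The effectors were slightly higher in shNSUN2 without passing the test. BAX (chromosome 19, 48954815 to 48961798), which moves from the cytosol to the mitochondria to form pores, had 46.8, 46.7 and 72.5 CPM in shNSUN2 and 45.3, 38.4 and 43.7 CPM in FaDu. BAK1 (chromosome 6, 33572547 to 33580293), the effector that resides on the mitochondria, had 92.0, 97.7 and 134 CPM in shNSUN2 and 88.9, 90.4 and 88.8 CPM in FaDu. Replicate 3 of shNSUN2 was the highest library for both genes, and the other 2 lay just above FaDu. The log2 fold was 0.38 for BAX (SE 0.19, 95% interval -0.06 to 0.83, edgeR adjusted p = 0.208) and 0.27 for BAK1 (SE 0.16, 95% interval -0.09 to 0.64, edgeR adjusted p = 0.271), and without shNSUN2 replicate 3 it was 0.14 and 0.09. With the GC and length correction BAX was called (0.41, adjusted p = 0.0463), and BAK1 was not (0.31, adjusted p = 0.0589). The longest BAX and BAK1 transcripts have 58.9% and 58.8% GC, and BID's has 49.7%. Whether the GC trend of replicate 3 has a part in the effectors' values was not tested.

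Counted in CPM without a model, 6 of the 9 tested members had groups that did not overlap (66.7%, against 42.3% of all genes tested): BID, BAX and BAK1 with shNSUN2 above, and BCL2L1, MCL1 and BIK with shNSUN2 below. The count depends on the scale. In the TPM given below, BCL2L1 overlapped (89.9 in shNSUN2 replicate 1, 83.7 in FaDu replicate 2). MCL1 also overlapped in TPM (210 in shNSUN2 replicate 1, 186 in FaDu replicate 2). The TPM share over all genes was not counted. BID, BCL2L1 and BIK had an unadjusted p under 0.05, and BID alone passed after adjustment.

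**Figure D2:**
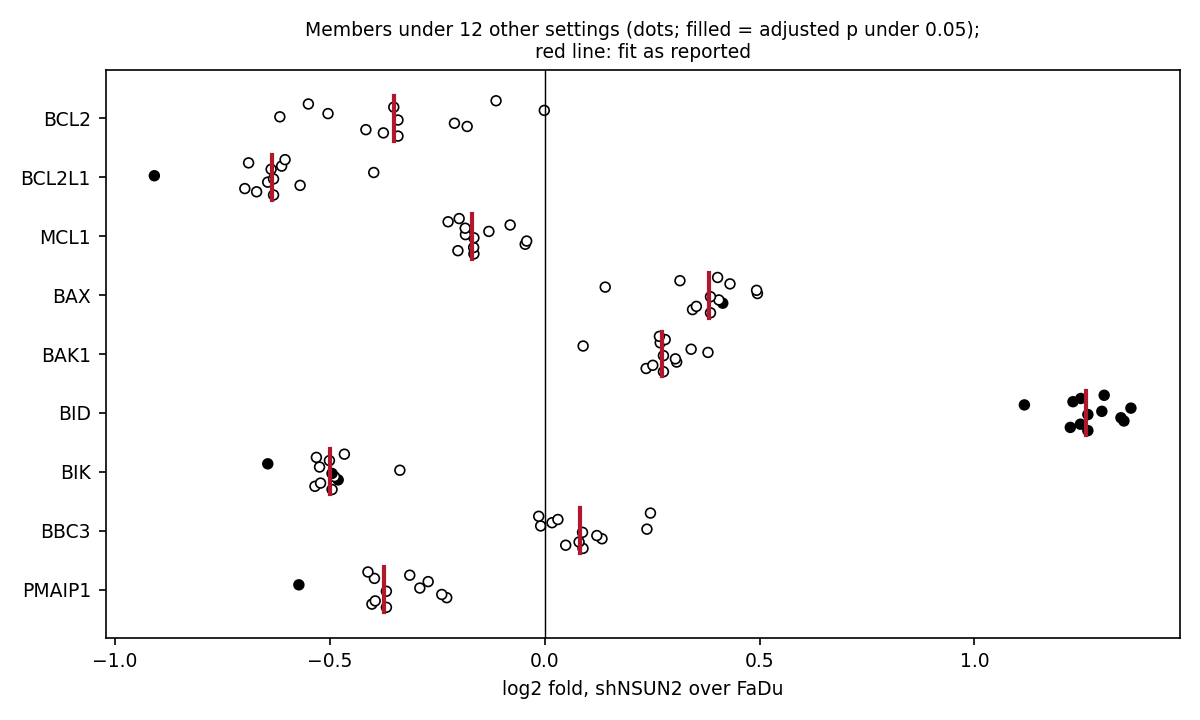
Log2 fold of each tested member (shNSUN2 over FaDu, horizontal axis) in the fit as reported (red line) and under 12 other settings (dots, filled where the adjusted p is under 0.05). All BID dots are filled and lie between 1.116 and 1.36; BIK has 3 filled dots, BCL2L1, BAX and PMAIP1 1 each, and BCL2, MCL1, BAK1 and BBC3 none.

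Levels were compared between members as TPM, that is, counts per kilobase of all exons of a gene, scaled to the same total in every library. MCL1 led in both groups, with 193 ± 15.02 TPM in shNSUN2 and 202 ± 15.8 TPM in FaDu, and gave 31.4% of the summed TPM of the 10 members in shNSUN2 and 33.1% in FaDu. BAK1 followed with 143 ± 18.8 TPM in shNSUN2 and 112 ± 4.90 TPM in FaDu. BIK had 73.3 ± 11.4 and 97.7 ± 8.01 TPM, BCL2L1 63.1 ± 24.7 and 91.1 ± 8.08 TPM, and BAX 62.8 ± 11.9 and 45.5 ± 4.12 TPM, in shNSUN2 and in FaDu (SD, n = 3 each). These 3 were not separated in shNSUN2, where BIK and BCL2L1 overlapped, as did BCL2L1 and BAX. In FaDu, BAK1 overlapped BIK and BIK overlapped BCL2L1.

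The order of BID and PMAIP1 differed between the groups. BID had 40.7 ± 4.58 TPM in shNSUN2 and 16.0 ± 1.56 TPM in FaDu, and PMAIP1 33.5 ± 8.61 TPM in shNSUN2 and 40.4 ± 3.00 TPM in FaDu (SD, n = 3 each). Their libraries overlapped in shNSUN2 and not in FaDu, where PMAIP1 was above BID in every library. BID came to 26.9% ± 4.39 of the summed BH3-only level in shNSUN2 and 10.1% ± 0.298 in FaDu. BBC3 had 4.66 ± 0.771 TPM in shNSUN2 and 4.15 ± 0.952 TPM in FaDu, and BCL2 had 0.417 ± 0.216 and 0.485 ± 0.163 TPM. In FaDu the single BCL2A1 value, 0.372 TPM, fell within the range of BCL2.

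**Figure D3:**
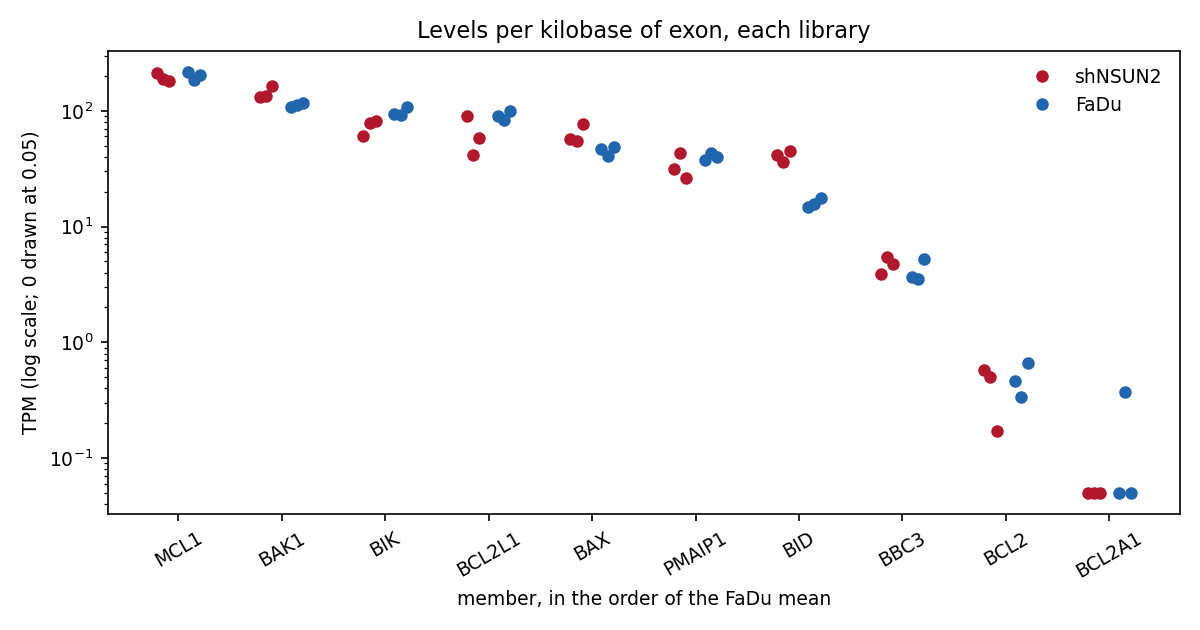
TPM of each member in each library on a log axis, shNSUN2 in red left of FaDu in blue, members ordered by their FaDu mean; values of 0 are drawn at 0.05. MCL1 lies at 182 to 210 TPM in shNSUN2 and 186 to 217 TPM in FaDu, BCL2 below 1 TPM, and BID is the member whose 2 groups lie furthest apart among those above 1 TPM.

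Summed by role, the anti-apoptotic members had 300, 229 and 240 TPM in shNSUN2 and 308, 270 and 304 TPM in FaDu. The effectors had 188, 190 and 242 TPM in shNSUN2 and 153, 154 and 166 TPM in FaDu. The BH3-only members had 137, 163 and 157 TPM in shNSUN2 and 149, 155 and 170 TPM in FaDu. Within each library, effectors over anti-apoptotic members came to 0.625, 0.828 and 1.01 in shNSUN2 and 0.499, 0.569 and 0.545 in FaDu, with no overlap. BH3-only over anti-apoptotic members came to 0.456, 0.711 and 0.654 in shNSUN2 and 0.485, 0.576 and 0.560 in FaDu, which overlap. Without BID the BH3-only sum was 95.5, 127 and 112 TPM in shNSUN2 and 135, 140 and 152 TPM in FaDu. Which sums separate the groups depends on the TPM total. Without the mitochondrial genome and the genes of the 10 largest counts, the effectors had 250.02 to 315 TPM in shNSUN2 and 240.1 to 251 TPM in FaDu, which overlap. On that scale the anti-apoptotic members had 312 to 400.2 TPM in shNSUN2 and 426 to 482 TPM in FaDu, and the BH3-only members 182 to 226 TPM in shNSUN2 and 234 to 258 TPM in FaDu, neither of which overlaps. The ratios within a library are the same on both scales, but none was corrected for GC content. The highest ratio of effectors to anti-apoptotic members was in shNSUN2 replicate 3, the library set apart by its GC trend. Whether that trend has a part in the ratios was not tested. The sums are led by MCL1, BAK1 and BIK, and they are descriptions of RNA, with no test and no measure of protein.

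Other family genes, from a list of 13 of which 11 were tested, moved in both directions. BCL2L12, an atypical family member, rose, with 24.2, 23.8 and 32.7 CPM in shNSUN2 and 16.0, 13.3 and 15.7 CPM in FaDu (log2 fold 0.84, SE 0.17, edgeR adjusted p = 0.0146). HRK, a BH3-only protein known from neurons, fell, with 3.44, 6.72 and 4.77 CPM in shNSUN2 and 10.04, 11.1 and 10.7 CPM in FaDu (-1.09, SE 0.24, edgeR adjusted p = 0.0202). BNIP3L, a receptor for the removal of mitochondria, also fell, with 36.3, 58.7 and 32.7 CPM in shNSUN2 and 73.8, 89.0 and 84.2 CPM in FaDu (-0.95, SE 0.22, edgeR adjusted p = 0.024). The groups did not overlap for any of these 3. The call of BCL2L12 was lost without FaDu replicate 2 or 3, those of HRK and BNIP3L without any 1 FaDu library, and that of BNIP3L also without shNSUN2 replicate 1.

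A pair of other family genes is named after their values were seen, because single libraries set them. BCL2L11, which encodes the BH3-only protein BIM, had 15.02, 16.6 and 17.0 CPM in shNSUN2 and 4.61, 5.23 and 14.3 CPM in FaDu. FaDu replicate 3 lay near shNSUN2 and apart from the other FaDu libraries. MIR4435-2HG, a non-coding gene that overlaps BCL2L11, had 1407 to 1957 counts in shNSUN2 and 1562 to 1905 in FaDu. The log2 fold was 1.01 (SE 0.42, edgeR adjusted p = 0.136), and without FaDu replicate 3 it was 1.72 (adjusted p = 0.00591). It was also called by DESeq2 (1.02, adjusted p = 0.0385) and with the replicate block and GC and length correction together (1.36, adjusted p = 0.0306). BCL2L2, an anti-apoptotic gene joined to its neighbour PABPN1 by a read-through transcript, had 14897, 957 and 1405 estimated counts in shNSUN2 and 11967, 841 and 1324 in FaDu. Replicate 1 of each group was far above the rest, while PABPN1 had 14400 to 21233 counts in shNSUN2 and 11250 to 15070 in FaDu. The level of BCL2L2 is therefore uncertain, and its log2 fold of 0.17 had a SE of 1.46.

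**Figure D4:**
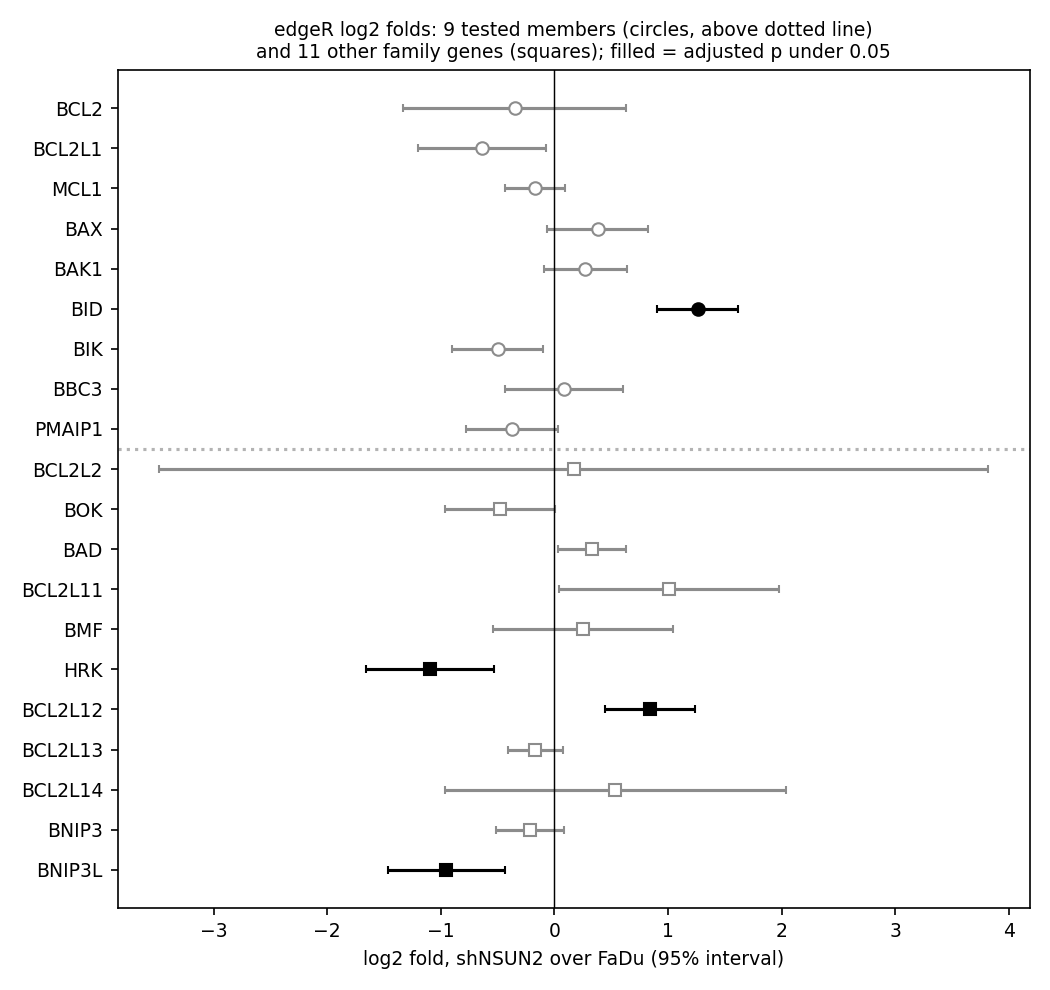
Log2 fold (shNSUN2 over FaDu) with its 95% interval for the 9 tested members (circles) and 11 other family genes (squares), filled where the edgeR adjusted p is under 0.05. BID at 1.26 and BCL2L12 at 0.84 are filled on the right, HRK at -1.09 and BNIP3L at -0.95 on the left; the interval of BCL2L2 is the widest shown.

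Of 95 other genes in 9 lists, the 13 other family genes above among them, 88 were tested, 13 rose and 10 fell, which is 26.1% called against 18.5% of all genes, with a median log2 fold of 0.15. Downstream of the family, 2 of 12 caspase activation genes were called higher and none lower (median log2 fold 0.33). CYCS, which encodes the cytochrome c that mitochondria release, had 231, 184 and 244 CPM in shNSUN2 and 139, 145 and 134 CPM in FaDu (log2 fold 0.66, SE 0.13, edgeR adjusted p = 0.0142). APAF1, the scaffold that cytochrome c turns into the apoptosome, had a log2 fold of 0.58 (SE 0.17, edgeR adjusted p = 0.0477). Of the 3 outer membrane channels, VDAC3 rose by 0.97 (SE 0.12) and VDAC1 by 0.55 (SE 0.11), with edgeR adjusted p of 0.00219 and 0.014. Of 6 inhibitors of apoptosis tested, XIAP, a direct inhibitor of caspases, rose by 0.57 (SE 0.14, edgeR adjusted p = 0.0312) and none was called lower (median 0.53).

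In the death receptor pathway 2 of 12 tested genes were called higher and none lower (median 0.19). CASP8, whose protease cuts BID, had 20.3, 15.8 and 17.4 CPM in shNSUN2 and 9.60, 10.9 and 10.4 CPM in FaDu (log2 fold 0.79, SE 0.15, edgeR adjusted p = 0.0123). The call of CASP8 was lost without FaDu replicate 1 or 3. TNFRSF21, a death domain receptor, rose by 0.88 (SE 0.11, edgeR adjusted p = 0.00251) and was called in all 12 other settings. Of 6 enzymes of MCL1 turnover, the ubiquitin ligase HUWE1 fell by 0.48 (SE 0.12, edgeR adjusted p = 0.0304, median -0.03). Its call was lost in 7 of 12 other settings, among them the GC and length correction.

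Of 19 genes of the DNA damage response, 5 fell and 1 rose (median -0.04). TP73, a transcription factor that can induce BH3-only genes, had 0.384, 0.320 and 0.237 CPM in shNSUN2 and 1.98, 1.596 and 1.91 CPM in FaDu (log2 fold -2.54, SE 0.32, edgeR adjusted p = 0.00237), few counts in shNSUN2. CDKN1A, the cell cycle inhibitor p21, fell by 0.77 (SE 0.16, edgeR adjusted p = 0.0156), SESN1 by 0.69 and RRM2B by 0.79. The other calls, named after their values were seen, were TP63 at -0.55 and AEN at 0.84.

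Of 11 NF-kB factors and targets, 2 rose and 1 fell (median 0.08). The chemokine gene CXCL8 rose by 1.47 (SE 0.12, edgeR adjusted p = 0.000551) and the inhibitor gene NFKBIA by 0.62 (SE 0.14), while NFKB1 fell by 0.60 (SE 0.11). Of 8 genes of a list of stress response genes and transcription factors, E2F1, a cell cycle factor, rose by 1.02 (SE 0.17) and CHAC1, which encodes a glutathione-degrading enzyme, by 0.89 (SE 0.20), and TRIB3, a pseudokinase gene of the stress response, fell by 1.09 (SE 0.19), with edgeR adjusted p of 0.00742, 0.0215 and 0.00886 (median 0.02). Of the 23 calls in these lists, 6 held in all 12 other settings (CXCL8, E2F1, TNFRSF21, TP73, TRIB3 and VDAC3). Without FaDu replicate 1, 2 or 3, 14, 16 and 16 of the calls were lost, and without shNSUN2 replicate 1, 2 or 3, 8, 4 and 1. AEN, APAF1, CDKN1A, CYCS, HUWE1, NFKBIA, RRM2B, SESN1, TP63 and XIAP lost their call without any 1 FaDu library, NFKB1 without replicate 1 or 2, and VDAC1 and CHAC1 without replicate 2 or 3. Without shNSUN2 replicate 1 the calls of AEN, APAF1, CDKN1A, HUWE1, RRM2B, TP63 and XIAP were lost, without replicate 2 those of APAF1, CHAC1, SESN1 and XIAP, and without replicate 3 that of AEN.

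**Figure D5:**
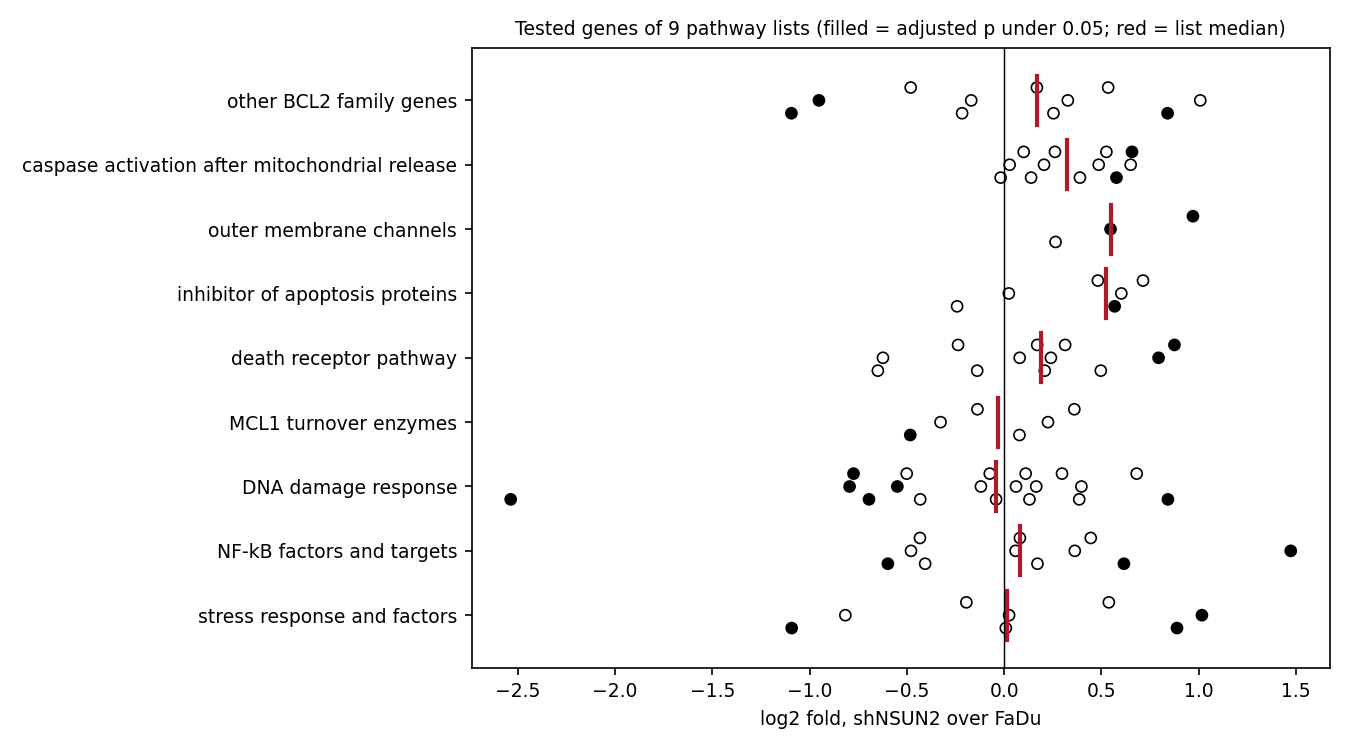
Log2 fold (shNSUN2 over FaDu, horizontal axis) of each tested gene in 9 lists of apoptosis genes and their regulators; filled dots have an edgeR adjusted p under 0.05 and the red line is the list's median. The caspase activation genes lie from -0.02 to 0.66, and TP73 at -2.54 is the lowest gene plotted.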

How the data were processed

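Expression was measured by RNA sequencing in 3 shNSUN2 and 3 FaDu libraries. The authors deposited 1 table of estimated counts per gene, whole numbers that were used as they stand. The submitters' processing notes list Bowtie 0.12.2, StringTie 1.3.0 and HISAT2 2.0 with no roles; they give a mouse build, which cannot have given human identifiers, and which human build and annotation were used is not given in the sources used here. Values of 4 outnumbered the mean of values 3 and 5 by 3.25 to 3.81 times, so low values cannot be read as single fragments, and no counting interval is given. Strand is not stated, so overlapping genes may share reads. Of the genes that overlap a member, only ABALON, antisense to BCL2L1, held more than 34 counts (197 to 384, against 2673 to 8524 for BCL2L1). BAK1P1, a copy of BAK1, had 44 to 149 counts against 4925 to 9040 for BAK1.

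Symbols came from a gene name table (58472 identifiers matched), positions and lengths from GENCODE 29 on GRCh38 (58552 matched). Genes were tested on all 6 libraries with edgeR 4.0.16 in R 4.3.3 (glmQLFit and glmQLFTest, robust, TMM, filterByExpr with a minimum count of 10 and total of 15, group as the only term), with Benjamini-Hochberg adjustment over 19081 genes, two-sided. The SE is the log2 fold divided by the square root of F. TPM used the union of exons. The fit was tested on simulated data.

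The members and lists were chosen with earlier results of these data known. The text names all 10 members, NSUN2, and of each list the called genes, at most 4 with the smallest adjusted p. Other settings were DESeq2 1.42.0, DESeq2 size factors, no filter on low counts, the replicate block, a GC and length correction (splines with 5 degrees of freedom each), both together, leaving out each library, and for TPM another length and scaling. Some genes of the lists are not reported here.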

Additional observations from a re-analysis of the deposited data

How the results depend on the processing

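NSUN2 and BID kept their direction and their call in all 12 other settings. Calls over all genes numbered 969 higher with the replicate block and 3390 after correction for GC and length, while leaving out 1 library gave 478 to 2090 higher and 861 to 2181 lower. Members called higher were 2 with the GC and length correction (BID and BAX). Members called lower were 1 with that correction, 1 by DESeq2 (BIK both times) and 0 to 1 without 1 library. Of all genes tested, 27.9% were called with the GC and length correction and 25.3% by DESeq2, against 18.5% in the fit as reported. Block and correction combined gave 19.7% of all genes, and fits without 1 library gave 6.76% to 21.5%. Pathway genes called higher numbered 22 under the GC and length correction, 20 under block and correction combined, and 5 to 14 without 1 library, when 2 to 12 were called lower. The cause of these shifts was not tested, but leaving out a library also leaves fewer samples. The series is described as repeated pairs, with no word on what a pair shares, and whether equal replicate numbers mark a pair is not settled. Deviations from the group mean over all genes correlated at -0.04, 0.02 and 0.01 between libraries of the same number, and not every library was closest to its own number, although BCL2L2 was high in replicate 1 of both groups. The replicate block ended 7 of the 23 pathway calls (AEN, APAF1, HUWE1, NFKBIA, SESN1, TP63 and XIAP) and changed no call of a member. With the longest transcript as the length, 8 of 10 members kept their rank of level in shNSUN2 and 7 of 10 in FaDu, and without mitochondrial and the 10 most abundant genes all 10 did in both groups. Effectors over anti-apoptotic members came to 0.686 to 1.13 in shNSUN2 and 0.549 to 0.608 in FaDu by the longest transcript. Among the TPM sums, the BH3-only mean was 146 in shNSUN2 and 142 in FaDu by the longest transcript, against 152 in shNSUN2 and 158 in FaDu by the union of exons, so their order turns; without mitochondrial and the 10 most abundant genes it was 204 in shNSUN2 and 246 in FaDu. The members' median log2 fold was -0.05 with the GC and length correction, against 0.11 over all genes. Estimated counts were low for BCL2 (50 to 200), BCL2A1 (0 to 8), BBC3 (222 to 430) and TP73.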
